A study of Mus musculus with 12 samples.

Results

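The genes of glycolysis and of the response to low oxygen were followed in cultured mouse cortical neurons after scratch injury, with and without TGF-β1. They are 38 of the 55901 genes in the expression table, taken by symbol: 14 genes of glycolytic enzymes, 2 of lactate dehydrogenase, 4 that control the pathway, 4 transporters of glucose or lactate, 7 of the Hif pathway and 7 targets of hypoxia. The rule names symbols and sets no cutoff on a measured value. Every culture came from the cerebral cortex of newborn C57BL/6J mice and had arabinosylcytosine, an inhibitor of DNA synthesis that limits the growth of glial cells, on the first day in culture. Control cultures were not injured, Trauma cultures were scratched and collected 24 h later, and Tra_TGF cultures were scratched and given TGF-β1 at 10 ng/mL over the same 24 h. Each of the 3 groups had 4 libraries of polyadenylated RNA. The labels do not say whether the 4 libraries of a group came from separate cultures or litters, so the p-values below measure the spread between these libraries, which may be technical.

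Glycolysis splits glucose into pyruvate in the cytosol, and lactate dehydrogenase exchanges pyruvate with lactate. In the cortex astrocytes and neurons share this fuel, with lactate passing between them through monocarboxylate transporters, and neurons hold little of the activator PFKFB3. Hif1a is the oxygen-controlled subunit of a transcription factor that pairs with Arnt. Prolyl hydroxylases of the Egln family mark the Hif alpha subunits for removal through Vhl when oxygen is present, so Hif activity is set largely at the protein level, and the mRNA of Hif1a is not a measure of it. Many genes of glycolysis, glucose transport and vessel growth carry sites for this factor. FPKM, the unit used here, is the number of fragments on a gene scaled to its length and to a measure of library size. Levels of different genes, and shares of a sum, thus rest on the deposited gene lengths. Levels in different libraries rest on the scaling to library size.

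The core of the sequence bound by Hif factors is ACGTG or GCGTG on either strand. It was searched in the 250 bases before the RefSeq transcription start of each gene (build GRCm38.p6), with overlapping matches counted once. A window was found for 35 of the 38 genes, and not for Bnip3l, Slc2a3 and Epas1. The core was present in 27 of the 35 windows (77.1%), in 57.6% of 9984 windows of tested genes and in 38.6% of all 27025 windows. Of the genes that were lower in Tra_TGF than in Trauma, 7 of 12 had the core, as had both genes that were higher. Among the 21 others 18 had it, and these include Slc16a3 and Car9, which were not tested. The 5 lower genes without it were Tpi1, Pkm, Hk1, Aldoa and Eno2, which are not shown. The stretches below were picked to show where the core lies, in 4 of the lower genes and in Slc16a1, which rose with injury, beside that of Vegfa, which fell with injury and has no core. They are read 5′ to 3′ along the strand of the gene, hold no annotated exon, and carry the core in capitals. In CACGTG the cores of both strands overlap.
Pgk1, chrX:106186850-106187099, plus strand: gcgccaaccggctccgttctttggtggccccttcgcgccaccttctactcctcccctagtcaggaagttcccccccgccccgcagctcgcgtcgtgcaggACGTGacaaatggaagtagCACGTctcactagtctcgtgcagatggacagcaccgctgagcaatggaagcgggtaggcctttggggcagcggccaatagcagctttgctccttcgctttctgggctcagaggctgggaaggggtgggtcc
Ldha, chr7:46845554-46845803, plus strand: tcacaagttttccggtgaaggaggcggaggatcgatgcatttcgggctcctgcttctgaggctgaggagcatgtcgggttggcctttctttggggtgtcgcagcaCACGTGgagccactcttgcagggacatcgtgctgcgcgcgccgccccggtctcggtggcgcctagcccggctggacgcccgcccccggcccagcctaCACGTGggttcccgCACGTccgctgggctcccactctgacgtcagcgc
Ddit4, chr10:59951835-59952020, minus strand: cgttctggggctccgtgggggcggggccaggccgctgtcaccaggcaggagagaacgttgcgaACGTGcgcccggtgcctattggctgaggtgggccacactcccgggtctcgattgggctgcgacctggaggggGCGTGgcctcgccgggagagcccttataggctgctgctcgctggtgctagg
Egln2, chr7:27166803-27167052, minus strand: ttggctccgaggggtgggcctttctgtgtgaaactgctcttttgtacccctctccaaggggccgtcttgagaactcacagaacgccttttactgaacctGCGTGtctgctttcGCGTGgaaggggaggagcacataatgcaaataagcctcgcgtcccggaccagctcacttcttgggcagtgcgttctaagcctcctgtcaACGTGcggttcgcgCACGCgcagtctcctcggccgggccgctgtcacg
Slc16a1, chr3:104638414-104638663, plus strand: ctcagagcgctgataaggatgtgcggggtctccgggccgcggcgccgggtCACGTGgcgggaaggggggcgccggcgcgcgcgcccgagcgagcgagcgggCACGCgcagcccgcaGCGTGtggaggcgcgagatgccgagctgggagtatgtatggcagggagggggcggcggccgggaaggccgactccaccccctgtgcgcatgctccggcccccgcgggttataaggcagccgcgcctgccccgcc
Vegfa, chr17:46032378-46032627, minus strand: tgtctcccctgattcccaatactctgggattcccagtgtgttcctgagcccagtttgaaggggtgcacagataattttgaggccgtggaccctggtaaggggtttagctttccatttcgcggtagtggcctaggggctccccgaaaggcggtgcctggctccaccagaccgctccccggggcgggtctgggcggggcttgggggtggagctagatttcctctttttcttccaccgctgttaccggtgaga
In Pgk1 the matches began 150 and 131 bases before the start, and in Ldha 145, 48 and 34 bases before a start that lies inside the span of the gene in the deposited table. Ddit4 had its matches 187 and 115 bases before the RefSeq start, which lies 64 bases after the last base shown. Egln2 had 4 matches, and Slc16a1 had matches 200, 149 and 134 bases before its start. The window of Vegfa held none, which says only that these letters are absent from these 250 bases. A match in the sequence was not tested for binding, and a link between the core and the direction of a change was not tested.

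Between 15052486 and 17381671 reads fell on genes in each library, and 36 of the 38 genes reached a mean of at least 0.5 FPKM over the 12 libraries. The other 2 were Slc16a3, a lactate exporter, with 170 reads in all 12 libraries together, and Car9, a carbonic anhydrase, with 42. They were not tested. Reads of the mitochondrial genome made up 2.12% to 2.36% of the reads in Control replicates 2 to 4, 2.97% in Control replicate 1, 2.17% to 2.30% in Trauma and 2.69% to 3.23% in Tra_TGF. Control replicate 1 was the lowest of the Control libraries for 20 of 37 tested rows. The neuronal markers were well expressed, with a summed level of 1675 to 1729 FPKM for 10 genes in Control, 1472 to 1576 in Trauma and 1438 to 1475 in Tra_TGF. In RNA from whole cultures fewer cells of a type and less RNA per cell cannot be told apart.

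Of the 36 tested genes, 3 passed between the scratched and the uninjured cultures and 14 between scratched cultures with and without TGF-β1. Between Trauma and Control, 2 genes were upregulated, the lactate transporter Slc16a1 and the neuronal glucose transporter Slc2a3, and 1 was downregulated, the vessel growth factor Vegfa. Among all 15016 genes tested, 3.30% were called higher and 2.70% lower in that comparison (limma adjusted p of at most 0.05). Between Tra_TGF and Trauma, Hif1a and Pfkfb3 were upregulated and 12 genes were downregulated, beside 4.40% higher and 7.71% lower of all genes. The 12 were 9 genes of glycolytic enzymes (Hk1, Pfkl, Pfkm, Aldoa, Tpi1, Pgk1, Pgam1, Eno2 and Pkm), Ldha, the prolyl hydroxylase Egln2 and the stress gene Ddit4. Between Tra_TGF and Control, Slc16a1 and Pfkfb3 were upregulated and 11 genes were downregulated (the same list without Pfkm and Aldoa and with Vegfa), beside 6.14% higher and 10.4% lower of all genes. With quantile normalization 6 members were higher and 6 lower between Tra_TGF and Control, and 2 were higher and 6 lower between Tra_TGF and Trauma. That scaling also moved the split of all genes between Tra_TGF and Trauma from 661 higher and 1158 lower to 1125 and 927, and between Tra_TGF and Control from 922 and 1565 to 1134 and 918. The comparisons share libraries, so they are not independent of each other.

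**Figure D1:**
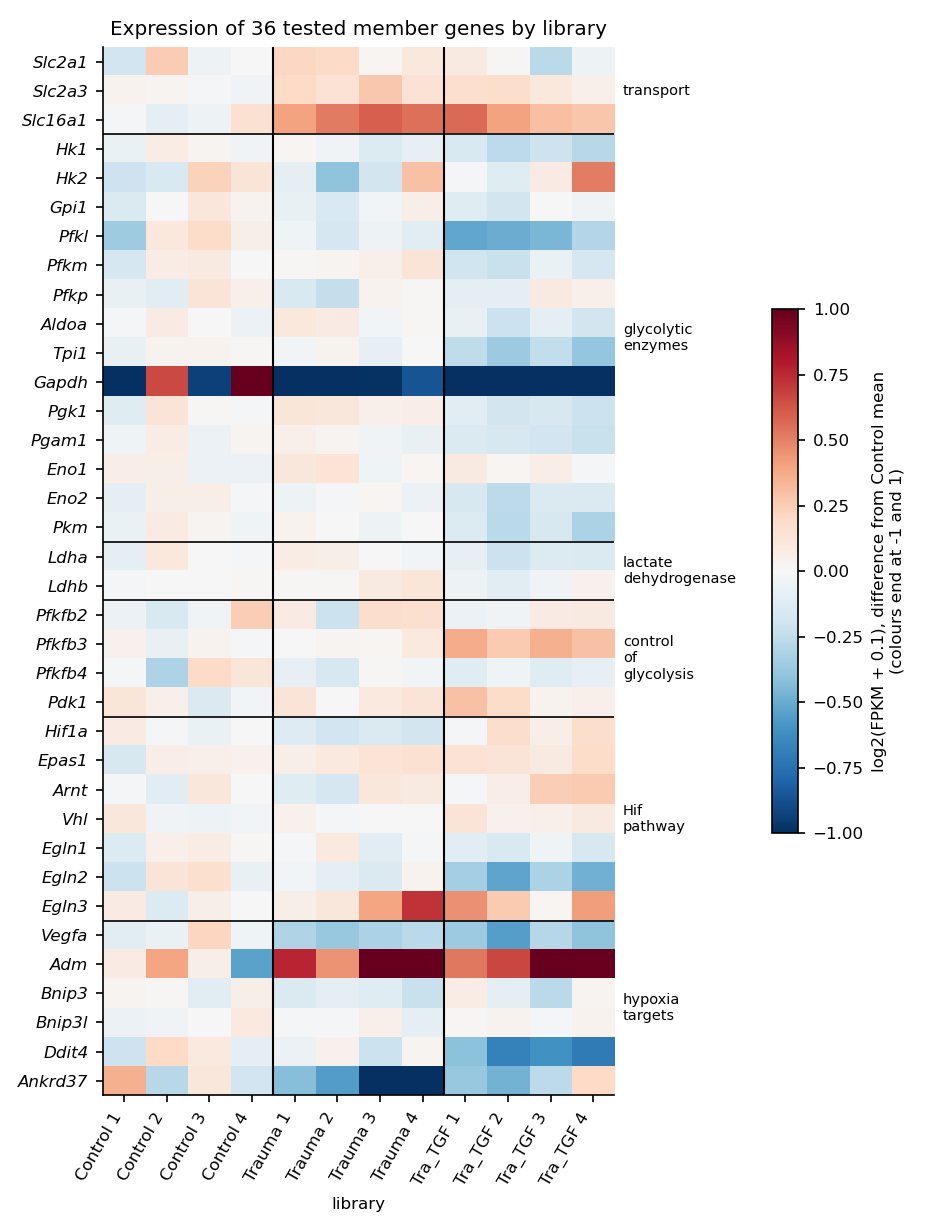
Difference of each gene's log2(FPKM + 0.1) from its Control mean in each of the 12 libraries, for the 36 tested genes grouped by role. Except for Gapdh and Hk2, the enzyme genes are near 0 in Trauma and mostly blue in the 4 Tra_TGF libraries. Slc16a1 is red in all 8 scratched libraries.

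The fold changes between Tra_TGF and Trauma ran with the base composition of the transcripts. Over 14699 genes with a known transcript, the log2 fold change between Tra_TGF and Trauma decreased with GC content (Spearman rho = −0.47 across genes, which are not independent replicates and share the same libraries). Genes of 40% to 45% GC had a median log2 fold change of 0.11, and genes of 55% to 60% GC one of −0.13. The 17 rows of glycolytic and lactate dehydrogenase genes had a median GC content of 53.5%, with a range of 48.0% to 61.2%, against 49.6% for all genes. When the GC trend of every library was removed with a smooth curve ahead of the fit, 5.56% of all genes were called, and the members called between Tra_TGF and Trauma were Pfkfb3 (higher) and Tpi1, Pgk1 and Ddit4 (lower), beside 1.79% higher and 3.77% lower of all genes. With the same correction, 2 genes were higher and 10 lower between Tra_TGF and Control, beside 4.56% and 9.14% of all genes. Between Trauma and Control it left 2 higher and 3 lower, beside 3.31% and 5.18%, and Hif1a and Ankrd37 joined Vegfa among the lower ones. The correlation with GC content was 0.09 between Trauma and Control and −0.36 between Tra_TGF and Control.

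**Figure D2:**
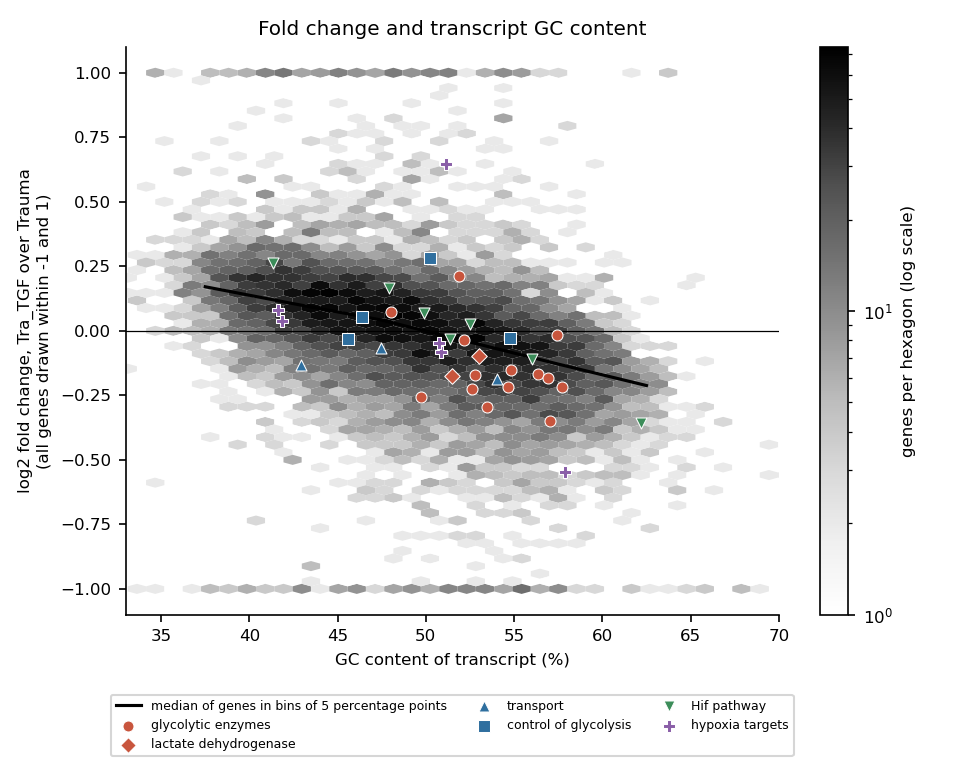
Log2 fold change of Tra_TGF over Trauma against the GC content of the transcript, for 14699 genes (grey hexagons, values drawn within −1 and 1) and for the 36 tested genes by role. The black line, the median of genes in bins of 5 percentage points, slopes down with GC content, and most enzyme genes lie below it.

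Both genes upregulated after injury encode transporters. Slc16a1 (ENSMUSG00000032902, chr3:104638668-104658462 in mm10, the build of all gene coordinates here) encodes the monocarboxylate transporter MCT1, which carries lactate and pyruvate and in the brain is best known from glia and vessels. Its values were 4.29, 4.04, 4.17 and 4.82 FPKM in Control, 5.75, 6.24, 6.58 and 6.36 in Trauma, and 6.44, 5.75, 5.33 and 5.25 in Tra_TGF. All 8 scratched libraries lay above the 4 Control libraries. The log2 fold change was 0.52 between Trauma and Control (SE 0.078, limma adjusted p = 0.00236), a rise of 43.2%, and 0.39 between Tra_TGF and Control (SE 0.078, limma adjusted p = 0.00681). Between Tra_TGF and Trauma the values overlapped, with a log2 difference of −0.13 (95% interval −0.30 to 0.04, limma adjusted p = 0.291). The promoter stretch printed above holds the Hif core 3 times. Markers of astrocytes, which also express Slc16a1, summed to 139 to 149.9 FPKM in Control, 185 to 228 in Trauma and 209 to 227 in Tra_TGF, and their part in this result was not tested.

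Slc2a3 (ENSMUSG00000003153, chr6:122727809-122801640) encodes GLUT3, the main glucose transporter of neurons. Its values were 16.4, 16.3, 15.8 and 15.6 FPKM in Control, 18.4, 17.7, 19.4 and 17.7 in Trauma, and 18.0, 18.0, 17.2 and 16.6 in Tra_TGF. The Trauma and Control libraries did not overlap. This is a log2 fold change of 0.19 (SE 0.042, limma adjusted p = 0.0208), a rise of 14.1%. The call was lost without Control replicate 3 or 4 or Trauma replicate 1 or 3 (adjusted p between 0.0519 and 0.0639). Between Tra_TGF and Control the log2 difference was 0.12 (SE 0.042, limma adjusted p = 0.0637), and between Tra_TGF and Trauma it was −0.07 (95% interval −0.16 to 0.03, limma adjusted p = 0.336). With quantile normalization the difference of Tra_TGF from Control passed (0.17, limma adjusted p = 0.0237).

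Slc2a1 (ENSMUSG00000028645, chr4:119108711-119137983) encodes GLUT1, the glucose transporter of glia and of the blood-brain barrier. It had 7.47, 10.2, 8.25 and 8.51 FPKM in Control, 9.88, 9.78, 8.70 and 9.19 in Trauma, and 9.10, 8.65, 7.07 and 8.25 in Tra_TGF. All 3 groups overlapped. The log2 difference was 0.13 between Trauma and Control (95% interval −0.08 to 0.34, limma adjusted p = 0.516). It was −0.19 between Tra_TGF and Trauma (95% interval −0.40 to 0.02, limma adjusted p = 0.229) and −0.06 between Tra_TGF and Control (95% interval −0.27 to 0.16, limma adjusted p = 0.741). Of the summed FPKM of both glucose transporter genes, Slc2a3 held 61.5% to 68.7% in Control, 64.4% to 69.0% in Trauma and 66.4% to 70.9% in Tra_TGF. The fourth transporter, Slc16a3, had between 4 and 22 reads per library.

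**Figure D3:**
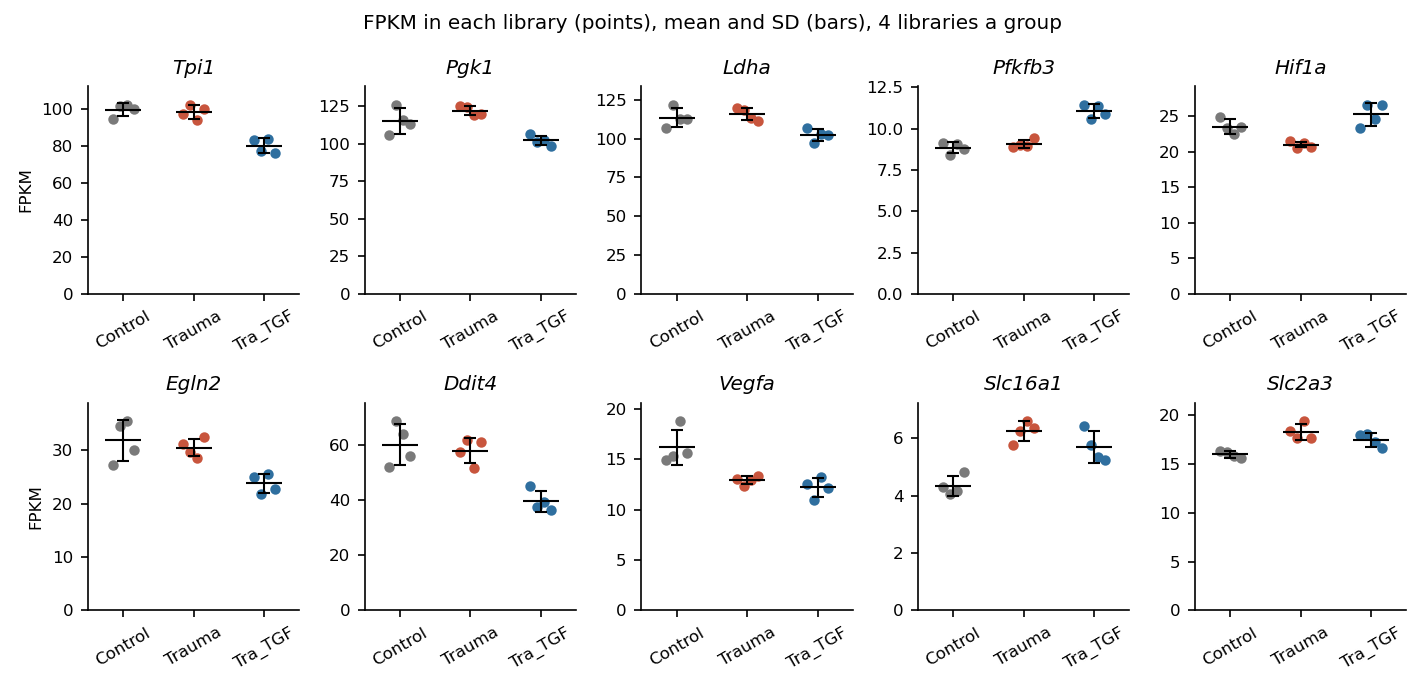
FPKM of 10 genes in each library (points), with the mean and SD of 4 libraries (bars), on axes that start at 0. Slc16a1 and Slc2a3 are higher and Vegfa lower in Trauma than in Control, and Tpi1, Pgk1, Ldha, Egln2 and Ddit4 have their lowest mean and Pfkfb3 its highest mean in Tra_TGF.

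Among the genes of glycolytic enzymes, 0 of 14 passed in either direction between Trauma and Control by limma (also 0 at an unadjusted p under 0.05 and 0 with voom on the recovered reads), and 9 of 14 were downregulated between Tra_TGF and Trauma. The exceptions between Trauma and Control came with the GC correction in a replicate block, where Hk1 and Pfkp were lower (log2 fold changes −0.11 and −0.11, limma adjusted p = 0.0411 and 0.0499). The median log2 fold change of their 15 rows was −0.02 between Trauma and Control and −0.18 between Tra_TGF and Trauma, beside −0.01 and 0.00 for all genes tested. Leaving out Gapdh, whose count is uncertain, the 13 other enzyme genes summed to between 1037 and 1137 FPKM in the Control libraries, between 1068 and 1119 in Trauma and between 942 and 999.96 in Tra_TGF. The Tra_TGF libraries were the 4 lowest of the 12. After the GC correction 2 of 14 passed between Tra_TGF and Trauma, Tpi1 and Pgk1, beside 3.77% lower of all genes. The median was then −0.07, beside 0.01 for all genes. Between Tra_TGF and Control 7 of 14 were downregulated, beside 10.4% of all genes. With the GC correction 6 of 14 were lower there (Eno2, Hk1, Pfkl, Pgam1, Pgk1 and Tpi1), beside 9.14% of all genes. Their median was −0.12, beside −0.03 for all genes.

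Tpi1 (ENSMUSG00000023456, chr6:124810586-124814296) encodes triosephosphate isomerase, which interconverts the sugar phosphates made by aldolase. Its values were 94.2, 102, 102 and 99.96 FPKM in Control, 97.3, 102, 93.6 and 99.6 in Trauma, and 83.2, 77.1, 83.6 and 76.1 in Tra_TGF. Every Tra_TGF library lay below every other library. Tpi1 had a log2 fold change of −0.29 between Tra_TGF and Trauma (SE 0.043, limma adjusted p = 0.0043) and −0.31 between Tra_TGF and Control (SE 0.043, limma adjusted p = 0.00083), falls of 18.5% and 19.5%. With the GC correction the fall from Trauma was −0.21 (SE 0.034, limma adjusted p = 0.00703).

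Pgk1 (ENSMUSG00000062070, chrX:106187100-106203699) encodes phosphoglycerate kinase, the first step of the pathway to yield ATP. Its values were 105, 126, 116 and 113 FPKM in Control, 125, 124, 119 and 120.0 in Trauma, and 106, 101, 102 and 98.8 in Tra_TGF. The Tra_TGF and Trauma libraries were apart, while Control replicate 1 lay among the Tra_TGF libraries. Pgk1 had a log2 fold change of −0.26 between Tra_TGF and Trauma (SE 0.048, limma adjusted p = 0.00989), and it was also −0.26 after the GC correction (SE 0.050, limma adjusted p = 0.016). Against Control it was −0.17 in Tra_TGF (SE 0.048, limma adjusted p = 0.0321). That call was lost without Control replicate 2, 3 or 4 or Tra_TGF replicate 2, 3 or 4 (adjusted p between 0.053 and 0.0862). Copies of the gene elsewhere in the genome share 68.8% of its transcript and held 466 reads in the 12 libraries, beside 49849 on Pgk1.

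Of the 3 genes of phosphofructokinase, the committed step of glycolysis, Pfkm and Pfkl were downregulated between Tra_TGF and Trauma and Pfkp did not pass. Pfkm (ENSMUSG00000033065, chr15:98092589-98132451) was the highest of the 3 in FPKM. It had 71.5, 84.5, 85.7 and 80.5 FPKM in Control, 81.1, 81.7, 83.5 and 88.1 in Trauma, and 70.0, 68.8, 76.8 and 71.6 in Tra_TGF. Its log2 fold change between Tra_TGF and Trauma was −0.22 (SE 0.057, limma adjusted p = 0.0296). The Tra_TGF and Trauma libraries did not overlap. Pfkl (ENSMUSG00000020277, chr10:77986947-78010083), the liver-type gene, had 6.99, 9.68, 10.2 and 9.36 FPKM in Control, 8.71, 7.96, 8.65 and 8.29 in Trauma, and 6.23, 6.32, 6.51 and 7.30 in Tra_TGF. Its log2 fold change was −0.35 between Tra_TGF and Trauma (SE 0.101, limma adjusted p = 0.0444) and −0.44 between Tra_TGF and Control (SE 0.101, limma adjusted p = 0.0123). Pfkp (ENSMUSG00000021196, chr13:6579768-6648777), the platelet-type gene, ranged from 28.6 to 34.5 FPKM in Trauma and from 31.6 to 35.9 in Tra_TGF, with a log2 difference of 0.07 (95% interval −0.09 to 0.23, limma adjusted p = 0.554). In the summed FPKM of the 3 genes, Pfkp held 24.2% to 27.2% in Trauma and 29.3% to 30.6% in Tra_TGF, and Pfkm 65.9% to 69.1% and 63.0% to 64.9%. These shares did not overlap, and the difference between the genes was not tested. The order of the genes rests on their lengths. Pfkp held 86687 reads in the 12 libraries and Pfkm 51634, with deposited lengths of 13401 and 3340 bases. The longest transcript of Pfkp has 8681 bases. The GC content of the transcripts was 54.7% for Pfkm, 57.1% for Pfkl and 48.0% for Pfkp. After the GC correction neither Pfkm (limma adjusted p = 0.0933) nor Pfkl (limma adjusted p = 0.159) passed between Tra_TGF and Trauma. The call of Pfkm was also lost without any 1 of the Trauma replicates or Tra_TGF replicate 1, 2 or 4 (adjusted p between 0.0513 and 0.0872). That of Pfkl was lost without any 1 of the Trauma or Tra_TGF replicates or Control replicate 2 or 4 (adjusted p between 0.0506 and 0.113).

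Pkm (ENSMUSG00000032294, chr9:59656368-59679375) encodes pyruvate kinase, the last step to pyruvate. Its values were 142, 157, 152 and 144 FPKM in Control, 152, 148, 143 and 149 in Trauma, and 135, 123, 133 and 119 in Tra_TGF, where all 4 libraries lay below the other 8. The log2 fold change was −0.22 between Tra_TGF and Trauma (SE 0.046, limma adjusted p = 0.0154) and −0.22 between Tra_TGF and Control (SE 0.046, limma adjusted p = 0.00807). Both calls were lost with the GC correction (log2 fold changes of −0.07 and −0.12, limma adjusted p = 0.361 and 0.0685), and the transcript has a GC content of 57.7%. The first of them was also lost without Tra_TGF replicate 2 (limma adjusted p = 0.0519). A near-identical gene shares 65.5% of the transcript and held 1530 reads in the 12 libraries, beside 138829 on Pkm.

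Pgam1 (ENSMUSG00000011752, chr19:41911923-41918660) encodes phosphoglycerate mutase and had 152, 165, 151 and 159.7 FPKM in Control, 162, 160.0, 153 and 149 in Trauma, and 141, 140.5, 137 and 135 in Tra_TGF. Pgam1 had a log2 fold change of −0.17 between Tra_TGF and Trauma (SE 0.039, limma adjusted p = 0.0186) and −0.18 between Tra_TGF and Control (SE 0.039, limma adjusted p = 0.01). The Tra_TGF libraries were again the 4 lowest. A near-identical gene shares 43.1% of the transcript of Pgam1 and held 1529 reads in the 12 libraries, beside 58473 on Pgam1. Aldoa (ENSMUSG00000030695, chr7:126795234-126800751) was the main aldolase gene and the member of highest FPKM. It had 198, 213, 201 and 193 FPKM in Control, 217, 213, 198 and 203 in Trauma, and 191, 173, 189 and 177 in Tra_TGF. Its log2 fold change was −0.18 between Tra_TGF and Trauma (SE 0.045, limma adjusted p = 0.0247) and −0.14 between Tra_TGF and Control (SE 0.045, limma adjusted p = 0.053). After the GC correction neither gene passed against Trauma (limma adjusted p = 0.194 for Pgam1 and 0.646 for Aldoa). Both of these calls were lost without Trauma replicate 1 or 2 or Tra_TGF replicate 4, and that of Aldoa also without Tra_TGF replicate 2 (adjusted p between 0.0515 and 0.0771). A second row under the same symbol as Aldoa (ENSMUSG00000114515, chr7:126800790-126809108) held 332 reads in all and passed in no comparison.

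Hexokinase, which traps glucose in the cell, came almost wholly from Hk1, with 96.8% to 98.7% of the summed FPKM of Hk1 and Hk2. Hk1 (ENSMUSG00000037012, chr10:62268855-62379908) had 39.1, 43.2, 41.8 and 40.0 FPKM in Control, 41.5, 40.0, 37.3 and 38.8 in Trauma, and 36.8, 34.2, 35.5 and 33.9 in Tra_TGF. Its log2 fold change was −0.17 between Tra_TGF and Trauma (SE 0.045, limma adjusted p = 0.0334) and −0.22 between Tra_TGF and Control (SE 0.045, limma adjusted p = 0.00656). The Tra_TGF libraries lay below all others. The call against Trauma was lost with the GC correction (limma adjusted p = 0.677) and without Trauma replicate 1, 2 or 4 or Tra_TGF replicate 2 or 4 (adjusted p between 0.0656 and 0.0933). Hk2, the hexokinase most associated with hypoxia, stood at 0.547 to 1.12 FPKM and had a log2 difference of 0.21 between Tra_TGF and Trauma (95% interval −0.25 to 0.67, limma adjusted p = 0.562). Its 57 to 107 reads per library leave that interval wide.

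Of the genes of enolase, which makes phosphoenolpyruvate, Eno2 was downregulated in Tra_TGF and Eno1 did not pass. Eno2 (ENSMUSG00000004267, chr6:124760053-124769673), neuron-specific enolase, had 45.6, 50.7, 50.8 and 48.0 FPKM in Control, 47.1, 48.1, 49.3 and 46.9 in Trauma, and 43.5, 40.6, 44.2 and 44.1 in Tra_TGF. Eno2 had a log2 fold change of −0.15 between Tra_TGF and Trauma (SE 0.042, limma adjusted p = 0.0392) and −0.18 between Tra_TGF and Control (SE 0.042, limma adjusted p = 0.0154). The Tra_TGF libraries did not overlap with the others. The call against Trauma was lost with the GC correction (limma adjusted p = 0.427), without any 1 of the Trauma replicates, without Tra_TGF replicate 1, 2 or 4 and without Control replicate 4 (adjusted p between 0.0512 and 0.113). The call against Control was lost without Control replicate 3 (limma adjusted p = 0.0503). Eno1 (ENSMUSG00000063524, chr4:150236721-150248879), the enolase found in most tissues, ranged from 87.4 to 99.1 FPKM in Trauma and from 89.3 to 95.8 in Tra_TGF, with a log2 difference of −0.02 (95% interval −0.12 to 0.09, limma adjusted p = 0.86) and a value of 0.13 after the GC correction (limma adjusted p = 0.278). The share of Eno2 in the summed FPKM of both was 32.6% to 36.0% in Trauma and 30.9% to 33.1% in Tra_TGF, and the ranges overlapped. With quantile normalization Eno1 was higher in Tra_TGF than in Control (log2 fold change 0.17, limma adjusted p = 0.0184). Eno1 is uncertain, because near-identical genes share 85.6% of its transcript and held 5971 reads beside its 97161. Gpi1, glucose-6-phosphate isomerase, ranged from 54.2 to 66.6 FPKM over all libraries and passed in no comparison.

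Gapdh (ENSMUSG00000057666, chr6:125161715-125166467), the dehydrogenase between Tpi1 and Pgk1 and a gene often used as a reference, stood far below its neighbours in the pathway. It had 2.08, 8.94, 2.89 and 18.1 FPKM in Control, 2.12, 2.62, 2.78 and 3.05 in Trauma, and 2.49, 1.89, 2.20 and 2.37 in Tra_TGF. Control replicates 2 and 4 stood above every other library. The log2 difference was −1.07 between Trauma and Control (SE 0.514, limma adjusted p = 0.275), −0.22 between Tra_TGF and Trauma (SE 0.514, limma adjusted p = 0.82) and −1.30 between Tra_TGF and Control (SE 0.514, limma adjusted p = 0.107). The last of these passed without Control replicate 1 (limma adjusted p = 0.016). Stretches of at least 150 bases at 98% identity or more are shared with 73 other annotated genes and cover 35.7% of the transcript, and those genes held 5898 reads in the 12 libraries against 3445 on Gapdh. The number of reads on Gapdh is therefore uncertain, and its values are not read as a level of the enzyme.

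Lactate dehydrogenase is built from the products of Ldha, which favours lactate formation, and Ldhb, which favours its use. Ldha (ENSMUSG00000063229, chr7:46841475-46855627) had 107, 122, 113 and 113 FPKM in Control, 119.6, 118, 114 and 111 in Trauma, and 107, 97.5, 103 and 103 in Tra_TGF. The Tra_TGF libraries lay below the Trauma libraries, with a log2 fold change of −0.17 (SE 0.044, limma adjusted p = 0.0271), while between Trauma and Control it was 0.03 (SE 0.044, limma adjusted p = 0.792). Against Control it was −0.15 in Tra_TGF (SE 0.044, limma adjusted p = 0.0418), a call lost without Control replicate 2, 3 or 4, Trauma replicate 1, 2 or 3, or Tra_TGF replicate 2, 3 or 4 (adjusted p between 0.0508 and 0.119). The call against Trauma was lost without Trauma replicate 1 or 2 or Tra_TGF replicate 2 or 4 (adjusted p between 0.0653 and 0.0819). Ldhb (ENSMUSG00000030246, chr6:142490249-142507957) had 118, 119.7, 120.2 and 121 FPKM in Control, 121, 121, 127 and 130.4 in Trauma, and 115, 110.5, 117 and 123 in Tra_TGF. All 3 groups overlapped for Ldhb. Its log2 difference was 0.06 between Trauma and Control (SE 0.039, limma adjusted p = 0.456), −0.10 between Tra_TGF and Trauma (95% interval −0.18 to −0.01, limma adjusted p = 0.116) and −0.04 between Tra_TGF and Control (SE 0.039, limma adjusted p = 0.532). Ldha held 47.5% to 50.4% of the summed FPKM of both genes in Control, 46.0% to 49.8% in Trauma and 45.4% to 48.1% in Tra_TGF, and these ranges overlapped. After the GC correction Ldha had a log2 fold change of −0.14 between Tra_TGF and Trauma (limma adjusted p = 0.0929). Against Control it stayed called lower with that correction, but not when a replicate block was added.

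**Figure D4:**
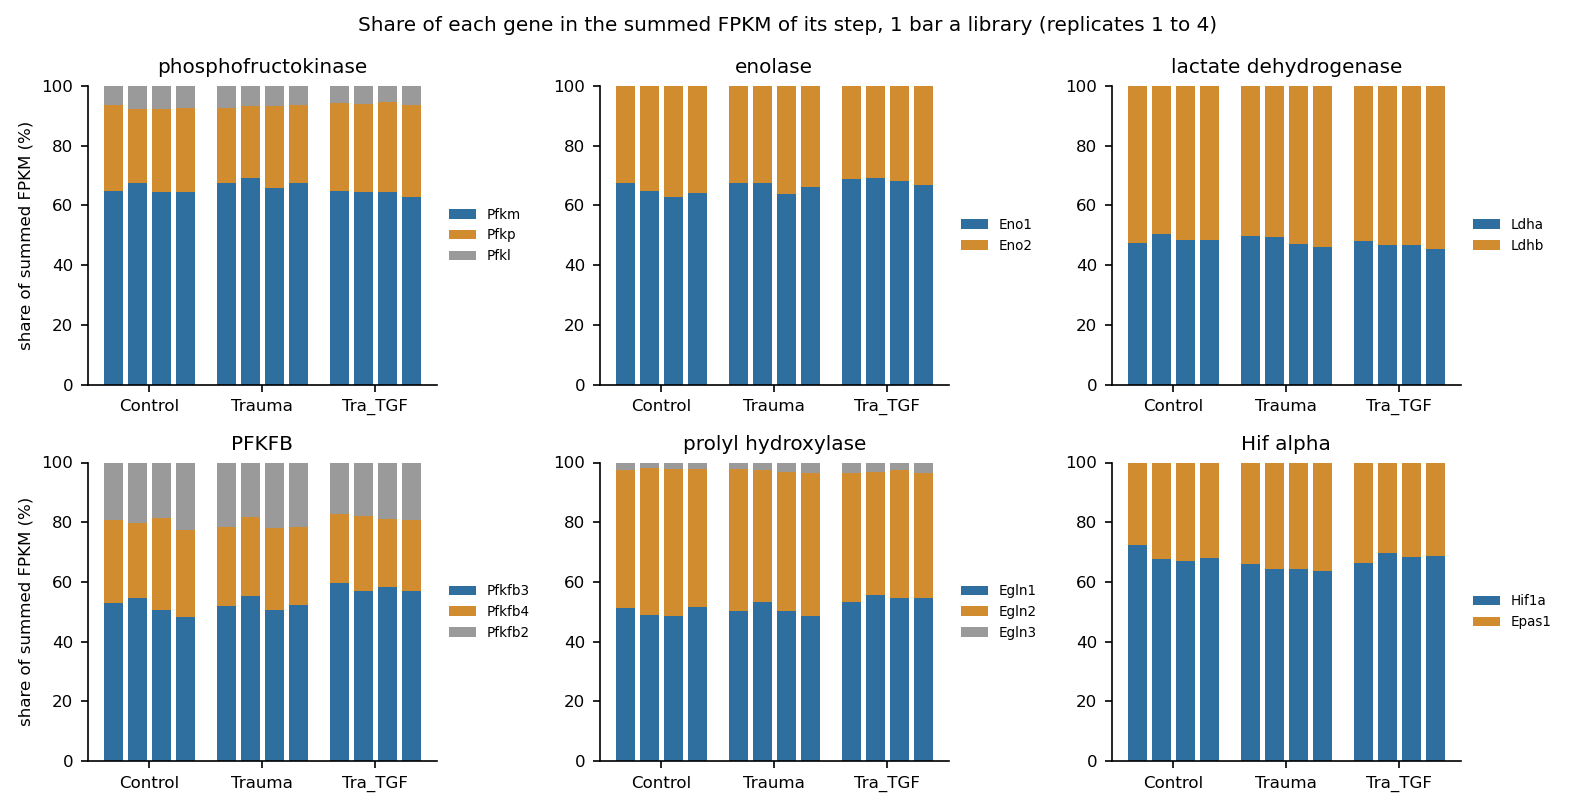
Share of each gene in the summed FPKM of its step, in percent, with 1 bar for each library in the order of replicates 1 to 4. The parts change by a few percentage points between groups, with Pfkp and Pfkfb3 taking more and Egln2 less in the Tra_TGF libraries than in the Trauma libraries.

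Of the genes that control the pathway, Pfkfb3 moved against the enzymes. It encodes the enzyme that makes the fructose bisphosphate best known as an activator of phosphofructokinase. Pfkfb3 (ENSMUSG00000026773, chr2:11471433-11554077) had 9.13, 8.41, 9.08 and 8.78 FPKM in Control, 8.88, 9.04, 8.97 and 9.45 in Trauma, and 11.4, 10.6, 11.4 and 10.9 in Tra_TGF. Each Tra_TGF library lay above the other 8. The log2 fold change was 0.28 between Tra_TGF and Trauma (SE 0.044, limma adjusted p = 0.00524), a rise of 21.6%, and 0.32 between Tra_TGF and Control (SE 0.044, limma adjusted p = 0.000787). Between Trauma and Control it was 0.04 (95% interval −0.06 to 0.13, limma adjusted p = 0.696). The rise from Trauma was 0.29 after the GC correction (SE 0.041, limma adjusted p = 0.00388), and the transcript has a GC content of 50.2%.

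The related genes Pfkfb2 and Pfkfb4 stood between 2.97 and 4.12 FPKM and between 3.88 and 5.54 FPKM and passed in no comparison. Nor did Pdk1, which encodes a kinase that inhibits pyruvate dehydrogenase, at 5.74 to 7.83 FPKM. Of the summed FPKM of the 3 Pfkfb genes, Pfkfb3 held 48.3% to 54.6% in Control, 50.4% to 55.4% in Trauma and 56.8% to 59.5% in Tra_TGF. The Tra_TGF shares lay above all others. Whether Pfkfb3 changed more than Pfkfb2 or Pfkfb4 was not tested.

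Hif1a (ENSMUSG00000021109, chr12:73901375-73947530) had 24.9, 23.2, 22.4 and 23.4 FPKM in Control, 21.4, 20.6, 21.3 and 20.7 in Trauma, and 23.3, 26.6, 24.5 and 26.5 in Tra_TGF. The Trauma libraries were the 4 lowest of the 12, and Tra_TGF overlapped with Control. The log2 fold change was −0.16 between Trauma and Control (SE 0.048, limma adjusted p = 0.0728) and 0.26 between Tra_TGF and Trauma (SE 0.048, limma adjusted p = 0.00936), a rise of 19.9%. Against Control it was 0.10 in Tra_TGF (95% interval −0.0028 to 0.21, limma adjusted p = 0.171). With quantile normalization the difference of Tra_TGF from Control passed (0.17, limma adjusted p = 0.0455). With a GC content of 41.3%, Hif1a was among the members of lowest GC, and the GC correction changed which comparison passed. The log2 fold change was −0.15 between Trauma and Control (SE 0.039, limma adjusted p = 0.0291) and 0.14 between Tra_TGF and Trauma (SE 0.039, limma adjusted p = 0.0579).

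Egln2 (ENSMUSG00000058709, chr7:27158658-27166802), which encodes the prolyl hydroxylase PHD1, had 27.3, 34.6, 35.4 and 30.1 FPKM in Control, 31.1, 29.8, 28.7 and 32.4 in Trauma, and 25.1, 21.9, 25.5 and 22.7 in Tra_TGF. All 4 Tra_TGF libraries lay below the other 8. Egln2 had a log2 fold change of −0.36 between Tra_TGF and Trauma (SE 0.082, limma adjusted p = 0.0186) and −0.41 between Tra_TGF and Control (SE 0.082, limma adjusted p = 0.00614). Egln2 has the highest GC content of the tested Hif pathway genes, 62.2%, and the GC correction brought the difference from Trauma to −0.12 (SE 0.036, limma adjusted p = 0.0707) and that from Control to −0.19 (SE 0.036, limma adjusted p = 0.00502). The call against Trauma was also lost without Trauma replicate 4 or Tra_TGF replicate 2 or 4 (adjusted p between 0.0548 and 0.0600).

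Egln1, which encodes PHD2, the main oxygen sensor of most cells, ranged from 29.7 to 35.6 FPKM over the 12 libraries, and Egln3, itself a target of Hif, from 1.33 to 2.49. Neither passed in any comparison, but without Control replicate 1 Egln1 was lower in Tra_TGF than in Control (log2 fold change −0.16, limma adjusted p = 0.0335). In the summed FPKM of the 3 hydroxylase genes, Egln2 held 44.5% to 47.8% in Trauma and 40.9% to 43.3% in Tra_TGF, and Egln1 48.5% to 53.1% and 53.2% to 55.8%. Epas1, which encodes HIF-2 alpha, had 9.50 to 11.2 FPKM in Control, 11.1 to 11.8 in Trauma and 11.3 to 12.1 in Tra_TGF, and Arnt and Vhl ranged from 3.70 to 5.04 and from 17.8 to 20.2. They passed in no comparison in the fit of all 12 libraries without a correction or quantile normalization. Between Tra_TGF and Control, Vhl was higher without Control replicate 1 (log2 fold change 0.12, limma adjusted p = 0.0308), and Epas1 was higher with quantile normalization and with the GC correction in a replicate block (0.18 and 0.15, limma adjusted p = 0.0323 and 0.049). Hif1a held 67.1% to 72.4% of the summed FPKM of Hif1a and Epas1 in Control, 63.7% to 65.9% in Trauma and 66.5% to 69.6% in Tra_TGF, so that the Trauma libraries had the lowest shares.

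Of the 6 tested targets of hypoxia, Vegfa passed between Trauma and Control. Vegfa (ENSMUSG00000023951, chr17:46016993-46032369), which encodes the main growth factor of vessels, had 15.0, 15.4, 18.8 and 15.7 FPKM in Control, 13.1, 12.4, 12.9 and 13.3 in Trauma, and 12.5, 11.0, 13.2 and 12.2 in Tra_TGF. The 4 Control libraries lay above the other 8. Vegfa had a log2 fold change of −0.32 between Trauma and Control (SE 0.073, limma adjusted p = 0.0255), a fall of 19.7%, and −0.40 between Tra_TGF and Control (SE 0.073, limma adjusted p = 0.00432). Without any 1 of the Trauma replicates the first call was lost (adjusted p between 0.0514 and 0.0753), and with the GC correction it held (log2 fold change −0.35, limma adjusted p = 0.00703). Between Tra_TGF and Trauma the difference was −0.08 (95% interval −0.24 to 0.08, limma adjusted p = 0.5).

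Ddit4 (ENSMUSG00000020108, chr10:59949669-59951834), which encodes REDD1, an inhibitor of mTOR signalling induced by hypoxia and other stress, showed the largest fall among the members called between Tra_TGF and Trauma. It had 51.9, 68.7, 64.2 and 56.2 FPKM in Control, 57.5, 61.8, 51.7 and 61.0 in Trauma, and 45.2, 37.5, 39.4 and 36.6 in Tra_TGF. The Tra_TGF libraries did not overlap with the rest. Ddit4 had a log2 fold change of −0.55 between Tra_TGF and Trauma (SE 0.093, limma adjusted p = 0.00772), a fall of 31.6%, and −0.60 between Tra_TGF and Control (SE 0.093, limma adjusted p = 0.00181). Ddit4 passed both comparisons after the GC correction as well, with log2 fold changes of −0.39 and −0.49 (limma adjusted p = 0.0122 and 0.00137). Its call held in each of the 30 alternatives tried.

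Adm, which encodes the peptide adrenomedullin, had 0.361, 0.472, 0.354 and 0.200 FPKM in Control and 0.638, 0.496, 0.838 and 1.22 in Trauma, and 0.527, 0.594, 0.801 and 1.12 in Tra_TGF, from 5 to 35 reads per library. All 8 scratched libraries lay above the Control libraries. The log2 differences from Control, 0.98 in Trauma and 0.93 in Tra_TGF, did not pass (SE 0.321 for both, limma adjusted p = 0.104 and 0.067), and both passed when protein-coding genes alone were fitted (limma adjusted p = 0.0432 and 0.0273). Ankrd37, a short transcript induced by Hif, had 1.77, 1.11, 1.49 and 1.18 FPKM in Control, 0.987, 0.894, 0.515 and 0.511 in Trauma, and 1.02, 0.958, 1.12 and 1.58 in Tra_TGF. Its log2 difference was −0.88 between Trauma and Control (SE 0.241, limma adjusted p = 0.0546) and 0.65 between Tra_TGF and Trauma (SE 0.241, limma adjusted p = 0.0972). The first passed with the GC correction, with the gene length correction, with protein-coding genes alone and without Trauma replicate 1 (limma adjusted p = 0.0371, 0.0451, 0.0238 and 0.0382). Bnip3 and Bnip3l, receptors for the removal of mitochondria by autophagy, ranged from 16.0 to 20.3 and from 22.5 to 25.7 FPKM and passed in no comparison. A near-identical gene shares 34.7% of the transcript of Bnip3l and held 1096 reads in the 12 libraries, beside 18213 on Bnip3l. Car9 had between 0 and 8 reads per library.

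**Figure D5:**
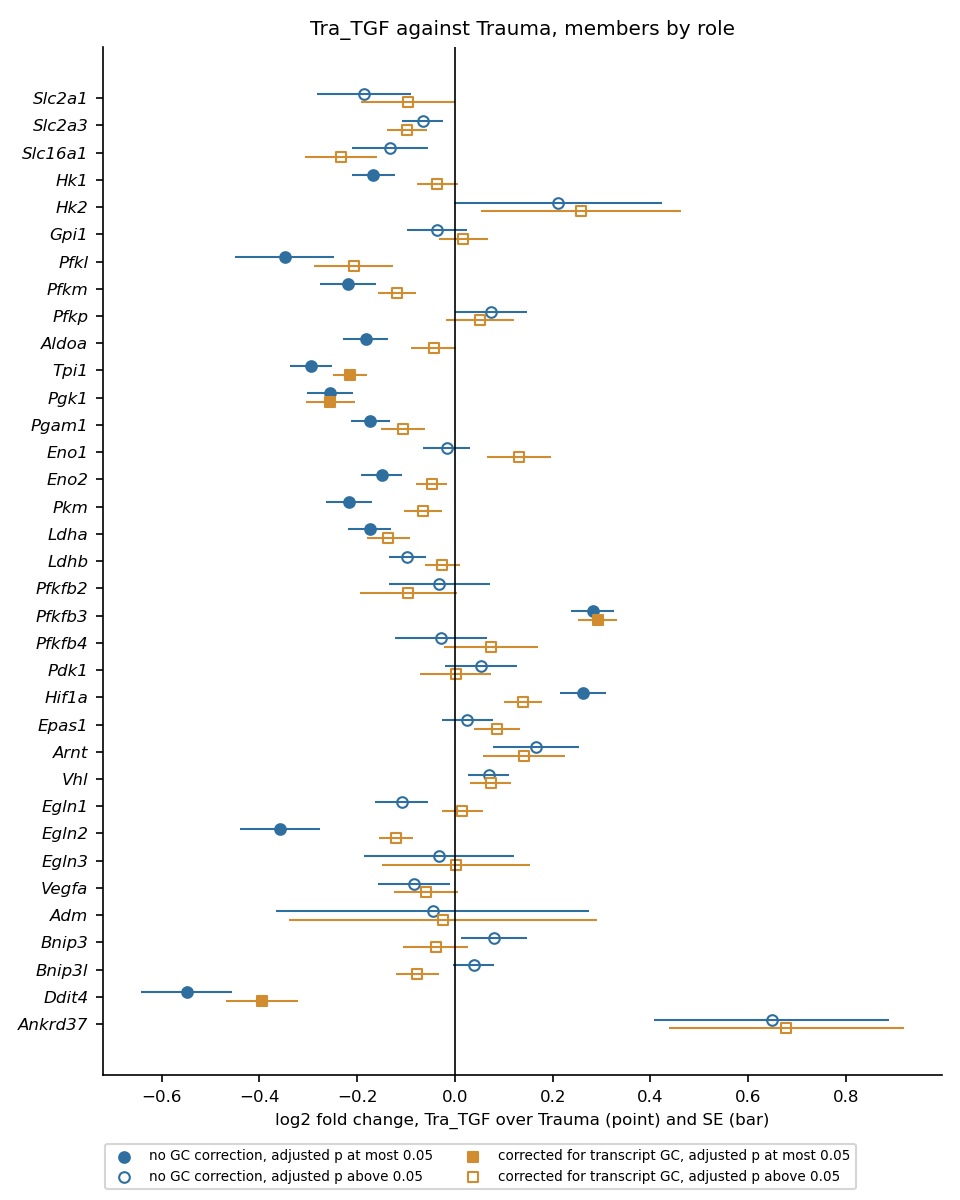
Log2 fold change (point) and SE (bar) of Tra_TGF over Trauma for 35 tested genes ordered by role, without and with correction of each library for transcript GC content. Gapdh is left out because of its uncertain count. Filled points passed an adjusted p of at most 0.05: 14 without the correction and 4 with it (Pfkfb3, Tpi1, Pgk1 and Ddit4).

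The number of members called lower between Tra_TGF and Trauma was 12 with all libraries, 5 without Trauma replicate 1 or 2, 7 without Trauma replicate 4, and 4 without Tra_TGF replicate 2 or 4. Over all genes the number called lower also decreased, from 1158 to 670 and 553 without Trauma replicates 1 and 2, to 616 without Trauma replicate 4, and to 483 and 576 without Tra_TGF replicates 2 and 4, so the decrease is not particular to the members. Tpi1, Pgk1 and Ddit4 were among the called genes each time. Fits to the reads recovered from the FPKM values (voom) also called 12 lower and 2 higher.

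Other genes of the same pathways were taken from lists of symbols. Of all genes, 6.00% were called in either direction between Trauma and Control, 12.1% between Tra_TGF and Trauma and 16.6% between Tra_TGF and Control. The counts for the lists and cell markers below stand beside these shares. Of 12 tested further glycolysis genes 1 was downregulated between Tra_TGF and Trauma, Aldoc, the aldolase of astrocytes, from 98.3 ± 8.54 to 76.3 ± 2.62 FPKM (SD, n = 4; log2 fold change −0.36, limma adjusted p = 0.0158), and 1 between Tra_TGF and Control, G6pc3, a glucose-6-phosphatase (log2 fold change −0.20, limma adjusted p = 0.0454). With the GC correction Aldoc passed and G6pc3 did not (log2 difference −0.09, limma adjusted p = 0.248). Of 15 genes of pyruvate and lactate handling, 4 were downregulated and 1 upregulated between Tra_TGF and Trauma. Pcx, which encodes pyruvate carboxylase, rose from 11.3 ± 1.14 FPKM in Control to 13.9 ± 0.994 in Trauma (limma adjusted p = 0.0408) and fell to 9.36 ± 0.544 in Tra_TGF, a log2 fold change of −0.56 from Trauma (limma adjusted p = 0.00342). Pdha1, a subunit of pyruvate dehydrogenase, and Mpc2, a subunit of the mitochondrial pyruvate carrier, had log2 fold changes of −0.16 (limma adjusted p = 0.0206) and −0.31 (limma adjusted p = 0.0237) between Tra_TGF and Trauma. The others called there, named after their values were seen, were Bsg (lower), the partner protein of the lactate transporters, and the transporter gene Slc16a7 (higher). Neither passed with the GC correction (limma adjusted p = 0.821 and 0.52). In Tra_TGF against Control, Pcx and Pdp2, a phosphatase that activates pyruvate dehydrogenase, were downregulated (log2 fold changes −0.26 and −0.33, limma adjusted p = 0.0354 and 0.0332). With the GC correction the call of Pcx was lost (−0.16, limma adjusted p = 0.176) and that of Pdp2 held (−0.38, limma adjusted p = 0.018). In all, 4 of the 15 were then lower, beside 9.14% of all genes. Of 7 genes of the pentose phosphate pathway, Taldo1 was downregulated between Tra_TGF and Trauma (log2 fold change −0.18, limma adjusted p = 0.0238), and Taldo1 and Tkt between Tra_TGF and Control (−0.26 and −0.21, limma adjusted p = 0.00241 and 0.00267). With the GC correction 0 of the 7 passed by limma between Tra_TGF and Trauma (1 at an unadjusted p under 0.05), with a log2 difference of −0.09 for Taldo1 (limma adjusted p = 0.352). Between Tra_TGF and Control 3 of the 7 were lower with it, beside 9.14% of all genes. Taldo1 and Tkt were among them (−0.23 and −0.17, limma adjusted p = 0.0146 and 0.00618).

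Of 36 tested further hypoxia genes, 3 were upregulated between Trauma and Control, beside 3.30% of all genes. Between Tra_TGF and Trauma 4 were upregulated and 2 downregulated, beside 4.40% and 7.71% of all genes. Between Tra_TGF and Control 6 were upregulated and 4 downregulated, beside 6.14% and 10.4%. Igfbp3, a carrier of insulin-like growth factors, had 11.6 ± 0.584 FPKM in Control, 16.6 ± 0.758 in Trauma and 27.8 ± 1.57 in Tra_TGF (SD, n = 4). Its log2 fold change was 0.52 between Trauma and Control (limma adjusted p = 0.000162) and 0.74 between Tra_TGF and Trauma (limma adjusted p = 3.4e-05). Plod2, an enzyme of collagen cross-linking, had 1.34 ± 0.273, 1.98 ± 0.192 and 3.73 ± 0.369 FPKM, with log2 fold changes of 0.55 (limma adjusted p = 0.0339) and 0.88 (limma adjusted p = 0.00508). P4ha1, a collagen prolyl hydroxylase, rose by 0.41 on the log2 scale with injury (limma adjusted p = 0.0131), and the circadian repressor Bhlhe40 rose by 0.38 between Tra_TGF and Trauma (limma adjusted p = 0.00462). Between Tra_TGF and Control the log2 fold changes were 1.26 for Igfbp3, 1.43 for Plod2 and 0.56 for P4ha1 (limma adjusted p = 9.5e-08, 6.6e-05 and 0.00114). The other genes called between Tra_TGF and Trauma, also named after their values were seen, were Vldlr (higher), Fam162a and Higd1a (both lower). Vldlr did not pass with the GC correction (limma adjusted p = 0.216). The median log2 fold change of the 36 genes was 0.01 between Trauma and Control and −0.02 between Tra_TGF and Trauma, beside −0.01 and 0.00 for all genes.

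Markers of glia moved with injury. Of the 8 astrocyte markers whose sum is given above, 7 were upregulated between Trauma and Control. Between Tra_TGF and Trauma 1 of the 8 was upregulated and 2 were downregulated, and with the GC correction 0 and 3. Of 8 microglial markers 3 were tested, and the summed level of all 8 was 8.50 to 12.1 FPKM in Control, 14.3 to 15.2 in Trauma and 11.4 to 14.7 in Tra_TGF. The 8 markers of the oligodendrocyte lineage summed to 46.3 to 49.1, 57.5 to 64.7 and 56.9 to 63.4 FPKM. The 6 endothelial and mural markers summed to at most 2.20 FPKM and the 4 fibroblast markers to at most 2.50 FPKM in any library, and no marker was at 0 in all libraries of a group. Of the 10 neuronal markers, 1 was higher and 3 were lower between Trauma and Control, and 1 was higher and 2 were lower between Tra_TGF and Trauma. With the GC correction these numbers were 1 and 4 between Trauma and Control, and by limma 0 and 0 between Tra_TGF and Trauma (1 marker at an unadjusted p under 0.05). The part of these cells in the results for Slc16a1, Slc2a3, Vegfa, Hif1a and the enzyme genes was not tested.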

How the data were processed

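Poly(A) RNA of 12 libraries was sequenced by the authors, with CASAVA, HISAT2 2.0.5 and mm10 named in the submitters' processing notes. Per the study's methods, reads were counted with featureCounts and scaled to FPKM. The methods speak of fewer samples than the table holds, and the groups of all 12 libraries came from their labels. The deposited table gives FPKM and gene length in bases, with no strand setting stated. Dividing out length and scale gave whole read counts, with 15052486 to 17381671 per library. Median-of-ratios factors of the deposited FPKM were equal in every library (1.006 before centring, 1 after it). The deposited values thus already carried a scaling that makes these factors equal, and they were tested as deposited.

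Genes with a mean of at least 0.5 FPKM were tested on log2(FPKM + 0.1) with limma 3.58.1 (R 4.3.3) in 1 fit of 12 libraries with a mean-variance trend. Fold changes on this scale understate the change of low genes. P-values were adjusted by Benjamini-Hochberg over 15016 genes and called at 0.05. Transcript GC content was removed per library by a loess curve (span 0.3) as an alternative, as was voom on the recovered reads. Other alternatives were further pseudocounts, filters, scalings, a replicate block and leaving out libraries. Near-identical genes were found with blastn 2.17.0 (98% over 150 bases). A limma fit with a mean-variance trend was tried on simulated reads for Trauma and Tra_TGF alone. The read recovery, the corrections, the replicate block, voom and the promoter search were not tried on simulated data. Every member is named, with full statistics for those that passed or are central to the pathway. From other lists up to 3 genes of smallest adjusted p are named for each comparison, and between Tra_TGF and Trauma also the others called, chosen after their values were seen. The members and lists were chosen with earlier results of these data known. Sequences are from RefSeq, GRCm38.p6.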

Additional observations from a re-analysis of the deposited data

Results flagged for a closer look

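Of 117 groups of 4 libraries examined for a library far from the other 3 (by Dixon's test), 3 had one, and chance gives about 1 in 20. Epas1 had 9.50 FPKM in Control replicate 1, below the 11.0 to 11.2 FPKM of the other Control libraries. Vhl had 20.0 FPKM in the same library, above their 17.8 to 18.1 FPKM. The second row of Aldoa (ENSMUSG00000114515) had 3.38 FPKM in Trauma replicate 4, from 48 reads, against 2.22 to 2.28 FPKM in the other Trauma libraries. In the fit of all 12 libraries without a correction or quantile normalization, none of these 3 rows passed in any comparison. Epas1 passed between Tra_TGF and Control with quantile normalization and with the GC correction in a replicate block (limma adjusted p = 0.0323 and 0.049). Without Control replicate 1, Vhl passed between Tra_TGF and Control (log2 fold change 0.12, limma adjusted p = 0.0308) and Epas1 did not.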

How the results depend on the processing

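The members called lower between Tra_TGF and Trauma numbered 12, and 6 with no filter on low values, with quantile normalization, with no variance trend or with the gene length correction in a replicate block, 3 with the GC correction (also in a replicate block) or when a log2 difference of 0.3 or more in size was also required, and 4 to 12 when 1 library was left out. Those called higher numbered 2, 1 with the GC correction (also in a replicate block) and 0 at that size. Between Trauma and Control the lower members numbered 1, and 0 with no filter or in a fit of these 2 groups, 2 with the length correction or protein-coding genes alone, 3 with the GC correction or an unadjusted p, 4 with the GC correction in a replicate block, and 0 to 1 with 1 library left out. The higher ones numbered 2, 1 at the size above and 1 to 2 with 1 library left out. Between Tra_TGF and Control the higher members numbered 2, 6 with quantile normalization, 5 with an unadjusted p and 2 to 3 with 1 library left out, and the lower ones 11, 6 with quantile normalization, 5 at the size above and 8 to 14 with 1 library left out. The fewer calls at a minimum size follow from its construction, and otherwise the cause was not tested. Of 1648 values for single genes, 1437 kept their direction and call, 161 lost the call, 30 gained it and 20 changed sign. The log2 values that changed sign were all of uncalled genes. For Ldha between Trauma and Control they were −0.0025 with the length correction, −0.0090 with the GC correction and −0.00097 to 0.063 with 1 library left out. Between Tra_TGF and Trauma they were −0.028 for Pfkp with the length correction, and for Eno1 0.078 with quantile normalization, 0.13 with the GC correction and −0.050 to 0.011 with 1 library left out. Between Tra_TGF and Control they were −0.015 for Hif1a with the GC correction, −0.12 to 0.029 for Slc2a1 with 1 library left out, and for Ldhb 0.060 with quantile normalization and 0.0063 with the length correction. Values with a replicate block added to a correction were equal. Deviations of same-numbered libraries correlated at −0.0088 to 0.076 (median 0.028, 11 of 12 pairs above 0), all under 0.1, against −0.091 to 0.073 (median −0.013) over 36 other pairs, and 5 of 12 libraries correlated best with their own number. With the replicate block alone, 8 members were lower and 2 higher between Tra_TGF and Trauma, 9 and 2 between Tra_TGF and Control, and 1 and 2 between Trauma and Control. Depth limits Adm and Ankrd37, which rest on 5 to 42 reads per library.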
